A study of Mus musculus with 35 samples.

Results

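The pancreatic lymph node of 20-week-old female NOD mice was measured on 5 two-colour arrays, out of 35 arrays that covered NOD nodes at 6 ages. On each array, RNA of NOD/LtJ nodes was labelled with Cy3 and RNA of the control strain NOD.B10Sn-H2b/J, called NOD.B10 here, with Cy5. The 5 arrays were taken by their titles and by nothing measured on them. The other ages were 10 days (7 arrays), 4 weeks (6), 8 weeks (4), 12 weeks (7) and 16 weeks (6), and of these the 12-week and 16-week arrays are compared with the 20-week arrays below.

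All NOD samples, the 20-week ones and those of every other age, carry the label diabetic, so the label does not separate mice with and without high blood glucose. The controls were 2 groups of 10 NOD.B10 females, aged 10 days and 20 weeks, and the labels do not say which group was on which array. The labels do not say whether 1 array holds 1 mouse or several. The control RNA counts here as 1 sample. A test of the ratio against 0 therefore leaves out the spread among control mice, and its p-values measure only the spread between the arrays. No array was run with the dyes exchanged, so a probe's dye preference cannot be told apart from a strain difference.

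NOD mice develop autoimmune diabetes, in which T cells destroy the insulin-producing beta cells of the pancreatic islets. The pancreatic lymph node drains the pancreas, and it is where T cells first meet beta-cell antigens carried there by dendritic cells. NOD.B10 mice share the NOD background but carry the H2 region, the mouse major histocompatibility complex on chromosome 17, of another haplotype, and they do not become diabetic. In rodents, red cells and granulocytes are made in marrow and spleen, and lymph nodes normally hold few of their precursors.

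The ratio is log2 of the NOD over the NOD.B10 processed signal, so 1 is a 2-fold higher and -1 a 2-fold lower signal in NOD. A gene was called at a Benjamini-Hochberg adjusted p under 0.05 in limma with a mean ratio of at least 1 in size, over all 28438 genes tested. Of these, 1237 were called (4.35%), 296 higher (1.04%) and 941 lower (3.31%) in NOD. The median ratio of all genes was -0.12, and with each array centred on its median the split became 462 higher and 639 lower. Among the 10037 genes whose signal was well above background on all 5 arrays in both strains, 188 were higher and 285 lower. Of all 941 lower genes, 233 were well above background in NOD on no array. The share of probes well above background was 47.1% to 60.1% in the NOD channel and 37.1% to 64.2% in the control channel, the latter highest on replicate 5. Replicate 5 was read on another scanner than replicates 1 to 4, and all 5 were scanned on 1 day. The T cell, B cell and high endothelial markers Cd3e, Cd79a, Glycam1, Ccr7 and Ms4a1 were well above background on every array, in NOD and in the control alike, and 0 of these 5 were called by limma (3 were lower at an unadjusted p under 0.05). Over all genes tested, 37.2% were at an unadjusted p under 0.05, 13.3% higher and 23.9% lower. With normexp background correction, a model-based subtraction, followed by loess, 66 genes were called higher and 88 lower. Of the genes named below and called at 20 weeks, Slc25a35, Lcn2, Elane, Fgf21, Cidec, Cidea, Plin1, Thbs1, Gimap3, Ikzf2, Btk, Xbp1, C1qa, H2-D1, Oasl2, Ddx58, Rsad2, Eif2ak2, Gbp5, Myc, Per1, Cdkn1a, Rpl4, Dpt and Kdr kept their sign but were not called then.

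Red cell precursor genes were higher in the NOD node. Of 31 measured genes of the erythroid list, 14 rose, 0 fell (1 at an unadjusted p under 0.05 in limma) and 17 did not pass the test, against 1.04% of all genes called higher. The list's median ratio was 1.08, beside -0.12 over all genes, and 30 of the 31 ratios were above 0. The list's mean ratio was 0.04, 2.28, 0.83, 0.38 and 1.30 on replicates 1 to 5. Replicate 2 was thus highest, and replicate 1 stood near 0. The level in the control channel varied little, from 10.62 to 10.74 on the log2 scale of normalised signal, while the NOD channel ran from 10.75 to 12.94 and so lay above it on all 5 arrays. Without replicate 2, 7 of the 31 genes were called and the median was 0.72. With the scanner as a block 3 were called, and with normexp background correction 8. Fewer cells of a type and less RNA per cell cannot be told apart in whole nodes, here and in all that follows.

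The promoters of 3 of the genes that rose are printed because GATA1, the master transcription factor of red cell development, binds the letters AGATAA or TGATAA. These are the 250 bases before the start site in RefSeq, build GRCm38.p6, written 5′ to 3′ on the strand of the gene, with each match on either strand in capitals. The positions are chr11:32283422-32283671 on the plus strand for Hba-a1, chrX:150547167-150547416 on the plus strand for Alas2 and chr6:41704326-41704575 on the minus strand for Kel.
Hba-a1: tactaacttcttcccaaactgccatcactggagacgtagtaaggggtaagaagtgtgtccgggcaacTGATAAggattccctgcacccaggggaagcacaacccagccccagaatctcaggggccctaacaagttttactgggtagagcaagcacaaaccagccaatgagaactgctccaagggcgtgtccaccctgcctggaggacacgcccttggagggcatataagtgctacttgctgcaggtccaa
Alas2: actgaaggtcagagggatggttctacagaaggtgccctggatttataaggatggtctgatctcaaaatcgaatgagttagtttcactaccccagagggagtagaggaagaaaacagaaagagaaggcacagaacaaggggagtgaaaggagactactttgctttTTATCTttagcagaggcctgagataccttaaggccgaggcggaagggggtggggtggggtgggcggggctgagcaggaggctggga
Kel: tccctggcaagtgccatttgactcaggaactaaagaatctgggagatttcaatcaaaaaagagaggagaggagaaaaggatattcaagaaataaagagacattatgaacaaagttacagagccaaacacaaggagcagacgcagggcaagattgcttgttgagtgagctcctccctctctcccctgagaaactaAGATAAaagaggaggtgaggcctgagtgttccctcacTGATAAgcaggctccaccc
The letters TTATCT are AGATAA read on the other strand, and both searched words share the core GATAA. Kel holds both words, at positions -56 and -19 from its start. Of the 14 erythroid genes that rose, 9 had a promoter in the table and 7 of them held a match. Of the 31 measured, 22 had a promoter and 13 held a match, while 5452 of all 32851 promoters did (16.6%). The promoters of Hbb-bt and Sptb, which also rose, held none. A match of letters is a description of the window and not a binding site.

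Hba-a1, an adult alpha-globin gene, had ratios of 2.49, 3.07, 1.87, 1.80 and 2.31 on replicates 1 to 5. All 5 arrays were far above 0 and replicate 2 was highest. Its mean was 2.31 ± 0.52 (SD, n = 5), a 4.95-fold higher signal, with limma adjusted p = 9.84e-06. This size is a lower limit, because the NOD spot was saturated on 2 arrays. Alas2, the first enzyme of haem synthesis in red cell precursors, had ratios of 2.12, 2.63, 1.29, 0.65 and 1.34, and averaged 1.60 ± 0.77 (SD, n = 5; limma adjusted p = 0.00156). Replicate 4 was lowest, and no array was below 0. With the scanner as a block Alas2 was at 1.22 and not called (limma adjusted p = 0.0924).

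Trim10, needed for terminal red cell differentiation, was at 0.52, 3.29, 1.59, 0.87 and 2.21, a mean of 1.70 ± 1.10 (SD, n = 5; limma adjusted p = 0.000524). Nfe2, a subunit of a transcription factor of red cells and megakaryocytes, was at 1.10, 3.21, 1.75, 0.72 and 2.03, a mean of 1.76 ± 0.96 (SD, n = 5; limma adjusted p = 8.37e-05). In both genes replicate 2 was highest and every array was above 0. Slc25a37, the mitochondrial iron importer mitoferrin, was not on the list but was among the highest ratios of all, at 1.73, 3.41, 1.79, 1.36 and 2.21 (2.10 ± 0.79 SD, n = 5; limma adjusted p = 3.95e-08). Its other probe gave 0.55.

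Other called members were named after their values were seen. Among them were the membrane and skeleton genes Slc4a1 (1.91, n = 4, replicate 4 dropped as an outlier spot), Kel (1.60), Epb42 (1.54) and Sptb (1.16), the adhesion molecule Icam4 (1.20), the beta-globin Hbb-bt (1.43, with the spot saturated in NOD on 2 arrays and in the control on 1), the transcription factor Klf1 (1.30) and Cldn13 (1.12). Gata1 itself stood at 0.04 ± 1.02 (SD, n = 5; limma adjusted p = 0.923), between -1.16 and 1.37, and the transferrin receptor Tfrc at 0.51 (limma adjusted p = 0.126). Xk, with -0.53, was the only member with a mean below 0.

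Neutrophil granule genes were also higher. Of 29 measured genes of the neutrophil list, 11 rose and 18 did not pass the test, against 1.04% of all genes called higher. In the list 0 fell (0 also at an unadjusted p under 0.05 in limma), and the median ratio was 0.52. The list's mean ratio on replicates 1 to 5 was 0.52, 1.94, 0.37, 0.15 and 0.80. Replicate 2 again stood highest, and all 5 means were above 0. The NOD channel lay between 9.63 and 10.78 and the control channel between 8.84 and 9.49. Without replicate 2, 6 genes were called and the median was 0.19. With the scanner as a block 4 were called, and with normexp background correction 6.

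The promoters of Ngp, which had the highest ratio of all genes with a symbol measured above background on every array in both strains, and of Ltf are printed because C/EBP factors, which drive granule genes in maturing neutrophils, bind words close to TTNNGNAA. The windows are chr9:110419558-110419807 for Ngp and chr9:111019042-111019291 for Ltf, both on the plus strand of GRCm38.p6 from RefSeq, 5′ to 3′, with matches on either strand in capitals.
Ngp: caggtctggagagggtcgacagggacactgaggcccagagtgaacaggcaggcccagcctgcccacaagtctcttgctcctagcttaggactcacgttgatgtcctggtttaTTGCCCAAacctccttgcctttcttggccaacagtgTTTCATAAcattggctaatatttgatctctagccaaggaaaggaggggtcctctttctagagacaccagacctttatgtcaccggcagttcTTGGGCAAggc
Ltf: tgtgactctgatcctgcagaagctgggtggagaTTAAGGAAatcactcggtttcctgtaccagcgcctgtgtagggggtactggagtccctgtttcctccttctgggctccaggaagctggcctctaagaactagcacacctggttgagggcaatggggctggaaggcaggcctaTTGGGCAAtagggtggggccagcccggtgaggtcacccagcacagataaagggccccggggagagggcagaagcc
Ngp holds 3 matches and Ltf 2. All 11 neutrophil genes that rose had a promoter in the table and 6 held a match, as did 16 of the 27 measured genes with a promoter and 12104 of all 32851 promoters (36.9%). Camp, Ctsg, Mpo, Elane and Pglyrp1 held none. The word is short and loose, and many promoters hold it.

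Ngp, neutrophilic granule protein, was at 1.54, 4.06, 2.42, 1.68 and 2.42 on replicates 1 to 5. Every array was above 1 and replicate 2 was far above the rest. Its mean of 2.42 ± 1.0 (SD, n = 5) was a 5.37-fold higher signal, with limma adjusted p = 1.41e-06. Camp, the cathelicidin of secondary granules, was at 1.14, 3.85, 2.03, 1.07 and 2.55, a mean of 2.13 ± 1.14 (SD, n = 5; limma adjusted p = 0.000484).

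S100a8, a subunit of calprotectin, was at 0.75, 3.34, 1.07, 1.07 and 2.33 (1.71 ± 1.09 SD, n = 5; limma adjusted p = 0.00352). Ltf, lactoferrin, was at 0.86, 3.42, 1.33, 1.02 and 1.84 (1.70 ± 1.03 SD, n = 5; limma adjusted p = 0.00175). In both, the same array was highest and none was below 0. Camp, S100a8 and Ltf were not called with the scanner as a block (limma adjusted p = 0.116, 0.287 and 0.116). Lcn2, an iron-sequestering protein of granules and epithelia, was above background in NOD on all 5 arrays and in the control on none, and was at least 2.11-fold higher. Elane, neutrophil elastase, was at least 1.52-fold higher by the same measure, and its ratio was 0.88 without replicate 2 (limma adjusted p = 0.0606). Elane was not called with the scanner as a block either (limma adjusted p = 0.0592).

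The remaining called members were the azurophil granule enzymes Mpo (1.23) and Ctsg (1.48), the collagenase Mmp8 (1.13), Pglyrp1 (1.14) and Ms4a3 (1.02), named after their values were seen. The chemokine receptor Cxcr2 at -0.38, Retnlg at 0.52 and S100a9, the partner of S100a8, at 0.82 (n = 4; limma adjusted p = 0.173) did not pass the test. Platelet and megakaryocyte genes leaned the same way, with all 17 measured ratios above 0 and a median of 0.51, but 1 was called. That was Thbs1, thrombospondin 1, at 3.44, 2.44, 1.83, 1.45 and 1.33 (2.10 ± 0.87 SD, n = 5; limma adjusted p = 7.15e-06), where replicate 1 and not replicate 2 was highest and another of its 4 probes gave -0.81. The platelet chemokines Pf4 and Ppbp stood at 0.50 and 0.44 and were not called. Of 23 mast cell, basophil and eosinophil genes 0 were called by limma (3 at an unadjusted p under 0.05, all lower), with 12 ratios above 0. The cell cycle list, which rises in dividing precursors of any lineage, had a mean ratio of 0.83 on replicate 2 and between -0.46 and 0.14 on the others. Of its 52 genes 1 rose and 2 fell, against 1.04% of all genes called higher and 3.31% called lower.

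**Figure D1:**
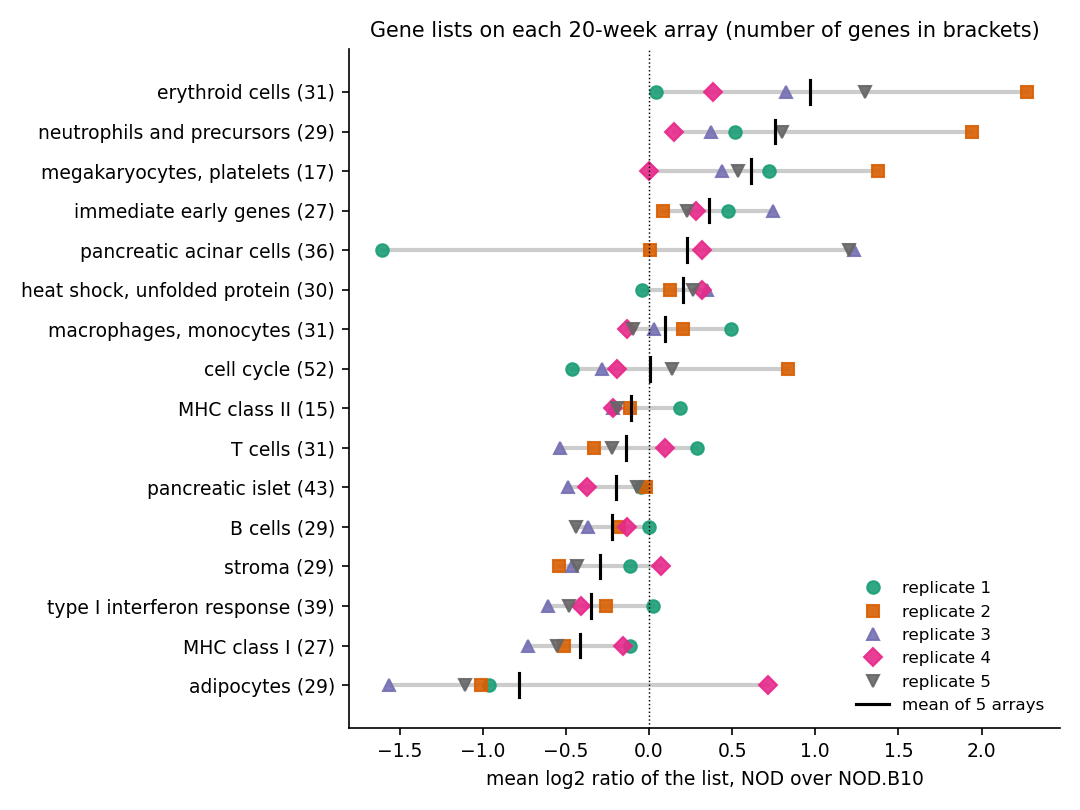
Mean log2 ratio of NOD over NOD.B10 of 16 gene lists (y axis) on each of the 5 arrays at 20 weeks; symbols mark the replicates and bars their mean. Replicate 2 stands highest in the erythroid (2.28) and neutrophil (1.94) lists, and replicate 4 alone lies above 0 (0.72) in the adipocyte list. That last mean leaves out low members whose spots were dropped on replicate 4.

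Adipocyte genes were lower in NOD. Of 29 measured genes of the adipocyte list, 0 rose (2 at an unadjusted p under 0.05 in limma), 11 fell and 18 did not pass the test, with a median of -0.66, against 3.31% of all genes called lower. The list's mean ratio was -0.96, -1.01, -1.57, 0.72 and -1.10 on replicates 1 to 5. Replicate 4 was the only array above 0. Its mean leaves out Car3, Pck1, Dgat2, Fabp4, Lpl and Fasn, low members whose spots were dropped on it, so it covers other genes than the other means. The NOD channel spread from 9.76 to 11.64 and the control channel from 10.92 to 11.33, so the ranges overlapped through replicate 4. The channel means on replicate 4 leave out the same members. Without replicate 4, 13 genes were called and the median was -0.91. With normexp background correction 7 were called.

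Thrsp, a regulator of fatty acid synthesis in fat, was at -2.12, -2.63, -2.93, -0.09 and -2.39, a mean of -2.03 ± 1.13 (SD, n = 5; limma adjusted p = 0.000142). Plin1, the coat protein of the fat droplet, was at -1.55, -2.23, -3.39, 1.65 and -1.78 (-1.46 ± 1.88 SD, n = 5; limma adjusted p = 0.0289). Cidec, which fuses droplets, was at -1.44, -2.53, -3.15, 1.44 and -2.52 (-1.64 ± 1.83 SD, n = 5; limma adjusted p = 0.0384). In each of these genes replicate 3 was lowest and replicate 4 highest. Leaving out replicate 1, 2, 3 or 5 ended the calls of both Plin1 and Cidec, with limma adjusted p between 0.066 and 0.204. Both also lost their calls with the scanner software's version as a block (limma adjusted p = 0.1 and 0.102), as did Cidea (limma adjusted p = 0.0755), described next. Cidea, a relative of Cidec, was at -1.71, -1.87, -1.89, 0.07 and -1.98 (-1.48 ± 0.87 SD, n = 5; limma adjusted p = 0.00329).

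Car3, Pck1, Dgat2, Fabp4, Lpl and Fasn were called on 4 arrays, because the spots on replicate 4 were marked as outliers and dropped, and they were named after their values were seen. Car3, the abundant carbonic anhydrase of fat, was lowest at -3.39 ± 1.48 (SD, n = 4; limma adjusted p = 6.8e-05). Lpl, lipoprotein lipase, lay between -1.98 and -1.76 (-1.91 ± 0.10 SD, n = 4; limma adjusted p = 0.000102), but its other probe gave 0.15. Pck1 averaged -2.87, Dgat2 -2.38 (another probe -0.53), Fabp4 -2.03 (another probe -0.58) and Fasn -1.23, and Retn, resistin, was at -1.40 on 5 arrays. Adipoq, the hormone adiponectin, had a mean of -1.32 and did not pass (limma adjusted p = 0.0952), with 1.95 on replicate 4 and between -3.23 and -1.12 on the others. Pparg, the transcription factor of fat cells, was at -0.66, past the p threshold (limma adjusted p = 0.0196) but not the size limit.

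Connective tissue genes were lower in part. Of 29 measured stroma genes, 0 rose (4 at an unadjusted p under 0.05 in limma) and 4 fell, with a median of -0.24. Of all genes, 1.04% were called higher and 3.31% lower. Lum, the collagen-binding lumican, was at -1.28, -2.67, -1.81, -1.02 and -1.75 (-1.71 ± 0.63 SD, n = 5; limma adjusted p = 2.35e-05). Col1a1, the main fibrillar collagen chain, was at -1.33, -1.74, -2.32, -1.06 and -1.47 (-1.58 ± 0.48 SD, n = 5; limma adjusted p = 0.000237), and another of its 3 probes gave -0.18. Every array was below 0 in both genes. The matrix protein genes Mgp and Dpt averaged -1.21 and -1.17, and Dpt was at -0.76 without replicate 5. Of 28 endothelial genes 3 fell, among them Kdr, the main receptor for vascular endothelial growth factor, at -1.24, and of 15 lymphatic vessel genes 2 fell. The stroma list's mean ratio was -0.11, -0.54, -0.47, 0.07 and -0.43 on replicates 1 to 5, highest on replicate 4 as in the adipocyte list. Whether the amount of fat and connective tissue taken with the nodes plays a part in either list was not tested.

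**Figure D2:**
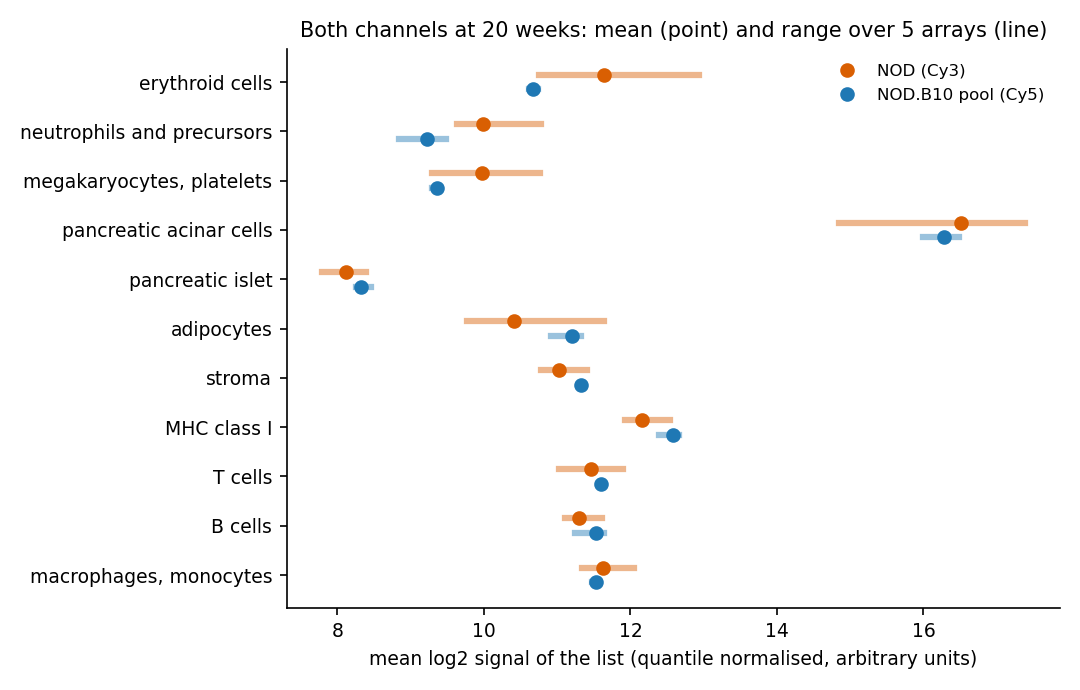
Mean log2 normalised signal of 11 gene lists (x axis) in the NOD channel (orange) and the NOD.B10 channel (blue) at 20 weeks; points are means over 5 arrays and lines the range. The erythroid range in NOD, 10.75 to 12.94, lies above the control range of 10.62 to 10.74, while the adipocyte ranges overlap.

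Class I genes of the H2 region, where the strains carry different haplotypes, were lower in part. Of 27 measured class I and antigen-presentation genes, 1 rose and 7 fell, with a median of -0.46 and 10 genes below 0 on all 5 arrays. Over all genes tested, 1.04% were called higher and 3.31% lower. Of the same genes, 32.3% had 1 sign on all 5 arrays, 20.3% below and 12% above 0. H2-T23, the gene of the non-classical molecule Qa-1, was at -1.07, -1.65, -1.83, -1.50 and -1.65 (-1.54 ± 0.29 SD, n = 5; limma adjusted p = 5.9e-11). H2-M2 was at -0.99, -1.69, -1.83, -1.42 and -1.61 (-1.51 ± 0.33 SD, n = 5; limma adjusted p = 2.44e-11), and H2-Q8 averaged -1.31. In these genes replicate 1 was nearest to 0 and replicate 3 lowest. The classical gene H2-D1 was at -0.57, -1.17, -1.32, -0.93 and -1.24 (-1.05 ± 0.31 SD, n = 5; limma adjusted p = 3.14e-07). It was just past the size limit, and at -0.98 without replicate 3, -1.0 without replicate 5 and under centring it was not called. H2-K1, the other classical gene, averaged -0.78 ± 0.14 (SD, n = 5; limma adjusted p = 0.00412), and all its arrays lay between -0.90 and -0.55. The gene that rose was H2-T3, at 1.20 and above 0 on every array. It was well above background in NOD on 4 arrays and in the control on 1. Probes of H2-M3 gave -1.46 and 0.34, and those of H2-Q1 ran from -1.29 to 0.07. H2-T3, H2-M3 and H2-Q1 were named after their values were seen. The probes were designed on 1 sequence, and whether haplotype differences under them move these ratios was not tested.

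Class II genes did not move as a group. Of 15 measured, 1 rose and 1 fell, with a median of -0.15, against 1.04% of all genes called higher and 3.31% called lower. Cd74, the invariant chain that escorts class II molecules, was at 1.66, 1.15, 0.99, 1.40 and 1.23 (1.29 ± 0.26 SD, n = 5), a 2.44-fold higher signal with limma adjusted p = 4.42e-09. H2-DMb1, of the peptide-loading molecule DM, was at -1.11, -1.36, -1.32, -1.32 and -1.66 (-1.35 ± 0.20 SD, n = 5; limma adjusted p = 1.94e-07). Cd74 was higher and H2-DMb1 lower on every array. With the scanner software's version as a block H2-DMb1 was at -0.86, under the size limit. Its relative H2-DMb2, named after its values were seen, went the other way on every array. H2-DMb2 averaged 0.97 (limma adjusted p = 3.96e-06), under the size limit, and its other probe was at 1.43 and called higher. The antigen-binding chains gave 0.87 for H2-Aa (n = 4), 0.20 for H2-Ab1 and 0.19 for H2-Eb1 (n = 4), and none of these was called. Their probes disagreed: a 2nd probe of H2-Aa gave -1.96, and the probes of H2-Ab1 ran from -0.56 to 0.38.

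Between H2-K1 and H2-M2 on chromosome 17, 158 genes were tested and 16 were called, 6 higher and 10 lower. On the rest of chromosome 17, 4.23% of 757 genes were called, and on the other chromosomes 4.26% of 18345. The share in this segment was thus above the background of 4.35%. The lowest ratio in it was that of D17H6S56E-5, at -4.66, -3.73, -3.69, -3.50 and -4.77 (-4.07 ± 0.60 SD, n = 5), a 16.8-fold lower signal with limma adjusted p = 5.9e-15. It was well above background in NOD on 4 arrays. Ppp1r18, a phosphatase subunit, averaged 1.58, Flot1, a lipid raft protein, 1.06 and Gpank1 1.03. These 4 genes were named after their values were seen.

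**Figure D3:**
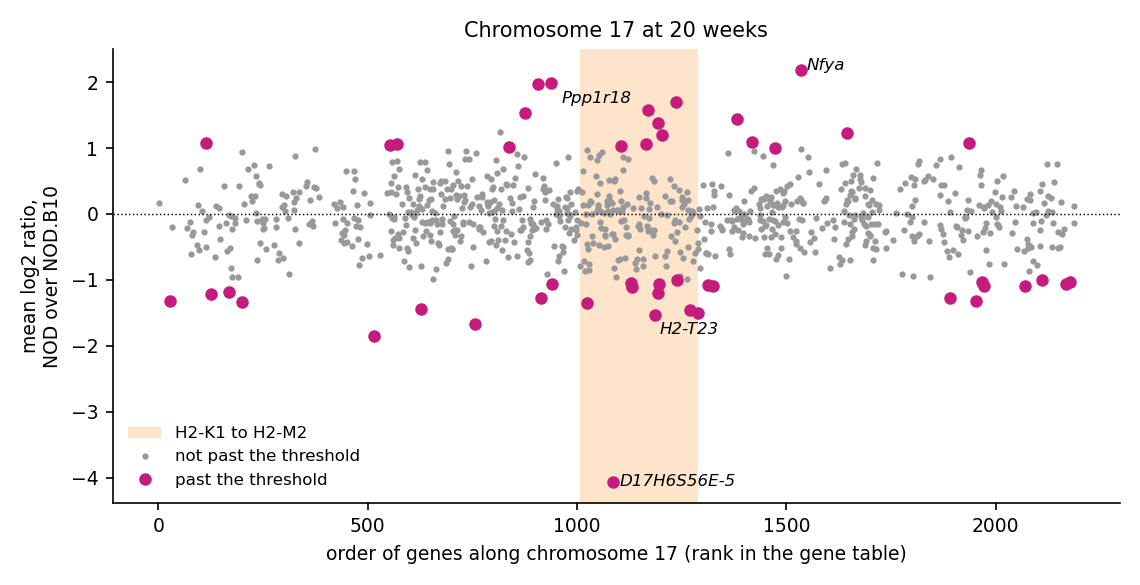
Mean log2 ratio of NOD over NOD.B10 (y axis) of the genes of chromosome 17 in their order along it (x axis) at 20 weeks, with the stretch from H2-K1 to H2-M2 shaded and called genes in pink. In the shaded stretch 16 of 158 genes were called, and D17H6S56E-5 stands lowest at -4.07.

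Interferon-response genes were called in part, mostly lower, and most ratios were below 0. Of all genes, 1.04% were called higher and 3.31% lower. In the type I list, 1 of 39 measured genes rose and 4 fell. Its median was -0.35, and 10 ratios were above 0. On all 5 arrays, 12 of its genes were below 0 and 3 above. Of 27 genes of the type II list 0 rose and 1 fell. At an unadjusted p under 0.05 in limma, 2 type I genes were higher and 18 lower, and 5 type II genes were higher and 10 lower. Oasl2, a sensor-related antiviral protein, was at -0.70, -0.58, -1.08, -3.12 and -1.21 (-1.34 ± 1.03 SD, n = 5; limma adjusted p = 0.000436), and without the low replicate 4 it was at -0.89 and not called. With the scanner software's version as a block it was not called either (limma adjusted p = 0.0504). Gbp5, a guanylate-binding protein of the type II list, was at -0.64, -1.70, -2.76, -1.28 and -1.15 (-1.51 ± 0.80 SD, n = 5; limma adjusted p = 5.04e-06). Both were below 0 on every array.

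Ddx58, the RNA sensor RIG-I, averaged -1.25 with another probe at 0.68, and Eif2ak2, the kinase PKR, averaged -1.03. Eif2ak2 lost its call without replicate 3 (-0.88) or replicate 5 (-0.96), under centring (-0.93) and with the scanner software's version as a block (-0.89). Rsad2, viperin, was the gene that rose, at 0.74, 2.66, 0.96, 0.30 and 1.54 (1.24 ± 0.91 SD, n = 5; limma adjusted p = 0.00158). Like the erythroid and neutrophil genes it was highest on replicate 2, and without that array it was at 0.88 and not called. A scanner block put it at 0.96 (limma adjusted p = 0.105). The interferon-inducible Isg15 (-0.75), Ifit1 (-0.25), Mx1 (-0.15) and Irf7 (0.24) were below the size limit. Ifng itself averaged -0.68 ± 0.57 (SD, n = 5; limma adjusted p = 0.03), with 4 arrays below 0 and replicate 5 at 0.20. Its other probe gave 0.14 (limma adjusted p = 0.64).

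The lymphocyte lists are set against 4.35% of all genes called. Of 31 T cell genes 0 rose and 2 fell, and of 29 B cell genes 1 rose and 1 fell. Of 27 cytotoxic and natural killer cell genes and of 28 dendritic cell genes 0 were called. At an unadjusted p under 0.05 in limma, 3 T cell genes were higher and 10 lower, 5 B cell genes higher and 17 lower, 1 cytotoxic gene higher and 12 lower, and 2 dendritic cell genes higher and 7 lower. Over all genes these shares were 13.3% higher and 23.9% lower. Gimap3, a GTPase of T cell survival, was at -1.09, -1.35, -2.21, -1.02 and -1.01 (-1.33 ± 0.51 SD, n = 5; limma adjusted p = 2.25e-08), with replicate 3 apart from the rest. Cd4 averaged -1.05 (limma adjusted p = 1.35e-05), but its signal was well above background in NOD on 1 array, and its other probe gave 0.19. Btk, the kinase of B cell receptor signalling, was at 1.22, 1.17, 1.43, 1.19 and 0.77 (1.16 ± 0.24 SD, n = 5; limma adjusted p = 0.000202).

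The regulatory T cell and cytokine lists are set against 1.04% of all genes called higher and 3.31% called lower. Of 18 regulatory T cell genes 0 rose and 2 fell. At an unadjusted p under 0.05 in limma, 2 of them were higher and 7 lower. Ikzf2, the transcription factor Helios, was at -1.40, -1.73, -2.04, -0.95 and -1.48 (-1.52 ± 0.40 SD, n = 5; limma adjusted p = 4.6e-06), with another of its 4 probes at 0.33. Foxp3, the defining factor of these cells, averaged -0.43 ± 0.52 (SD, n = 5; limma adjusted p = 0.187). Ctla4, the inhibitory receptor, was above background in NOD on all 5 arrays and in the control on none, and was at least 1.46-fold higher, with a mean ratio of 0.84 that was under the size limit (limma adjusted p = 0.00236). The cytokine Il2 stood at 0.49 (limma adjusted p = 0.162). Of 41 cytokine and chemokine genes 0 rose (3 at an unadjusted p under 0.05 in limma) and 2 fell, Ccl8 (-1.88, n = 4) and Il15 (-1.13).

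Of 31 macrophage genes 1 was called, C1qa, a chain of the first complement component, at 1.82, 1.10, 0.73, 1.13 and 1.09 (1.17 ± 0.40 SD, n = 5; limma adjusted p = 4.88e-05). The plasma cell and germinal centre list had 1 rise and 1 fall in 24 genes. Both lists are set against 1.04% of all genes called higher and 3.31% called lower. Xbp1, the secretory cell factor, was at 0.71, 1.22, 1.66, 0.90 and 2.04 (1.31 ± 0.55 SD, n = 5; limma adjusted p = 2e-05).

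Protein-folding genes were higher in part. Of 30 heat shock and unfolded-protein genes, 5 rose and 1 fell, with a median of 0.26. Of all genes, 1.04% were called higher and 3.31% lower. On all 5 arrays, 11 were above 0 and 5 below. Hspa8, the constitutive chaperone, was at 1.14, 1.06, 1.14, 1.45 and 0.90 (1.14 ± 0.20 SD, n = 5; limma adjusted p = 1.7e-06). Dnaja1, its co-chaperone, was at 1.45, 1.17, 1.45, 1.91 and 0.81 (1.36 ± 0.40 SD, n = 5; limma adjusted p = 1.13e-05), but 2 other probes gave 0.14 and 0.00. Replicate 5 was lowest and replicate 4 highest in both. The endoplasmic reticulum proteins Pdia4 and Calr averaged 1.08 and 1.03, with another probe of Calr at -0.35, and Xbp1 was the fifth. Chac1, a stress-induced enzyme that degrades glutathione, went the other way, at -2.46, -2.75, -2.09, -1.55 and -0.66 (-1.90 ± 0.83 SD, n = 5; limma adjusted p = 0.0212), and lost its call without replicate 1, 2 or 3 (limma adjusted p from 0.0569 to 0.0838) and with the scanner software's version as a block (-0.86; limma adjusted p = 0.513).

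Of 27 immediate early genes 2 rose and 0 fell (1 at an unadjusted p under 0.05 in limma). Myc, a growth-promoting transcription factor, was at 1.05, 1.24, 1.32, 1.28 and 1.60 (1.30 ± 0.20 SD, n = 5; limma adjusted p = 4.8e-07), with another of its 3 probes at 0.41. Ier5 averaged 1.27 (n = 4). Fos averaged 0.81 and Jun -0.60, both under the size limit. Of 18 glucocorticoid-responsive genes, 3 rose and 1 fell, against 1.04% of all genes called higher and 3.31% called lower. Per1, which is also a clock gene, was at 1.34, 1.33, 1.21, 1.37 and 1.76 (1.40 ± 0.21 SD, n = 5; limma adjusted p = 8.37e-05), and the other genes that rose were Lcn2 and Cdkn1a. With the scanner as a block Per1 was at 0.83 (limma adjusted p = 0.0587) and Cdkn1a at 0.66 (limma adjusted p = 0.152), neither called. Cdkn1a, at 1.02, was also under the size limit without replicate 4 (0.94) or replicate 5 (0.84). Mt2, a metallothionein, averaged -2.13 ± 1.96 (SD, n = 4; limma adjusted p = 0.0235), from -4.63 on replicate 1 to -0.53 on replicate 5. The steroid-induced Tsc22d3 (0.87) and Fkbp5 (0.63) were not called. Of 60 ribosomal protein genes 1 was called, Rpl4 at 1.09 (0.96 with the scanner software's version as a block), and of 48 respiratory chain genes 1 was called, lower.

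Exocrine pancreas genes were present in both channels and varied between arrays. Of 36 measured acinar genes 0 were called by limma in either direction (0 also at an unadjusted p under 0.05), with a median of 0.24. The list's mean ratio was -1.61, 0.00, 1.23, 0.32 and 1.20 on replicates 1 to 5. Replicate 1 was lowest and replicates 3 and 5 highest. The NOD channel spread from 14.84 to 17.38 and the control channel from 16.00 to 16.49. The control spot was saturated on all 5 arrays for 12 of the genes, which bounds their ratios. Whether pancreas was attached to the nodes was not tested.

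Of 43 islet genes, 0 rose (1 at an unadjusted p under 0.05 in limma) and 5 fell, among them Rbp4 (-1.99, n = 4), the beta-cell factor Nkx6-1 (-1.21), Dbpht2 and the prohormone convertase Pcsk1 (-1.01). Nkx6-1 was well above background on 1 array in each channel. Of all genes, 3.31% were called lower. The insulin genes were not called. Ins1 was at 2.63, 2.45, -1.38, 1.35 and 2.23 (1.46 ± 1.66 SD, n = 5; limma adjusted p = 0.149), and Ins2 at 2.21, 1.78, -3.54, 1.0 and 1.82 (0.66 ± 2.38 SD, n = 5; limma adjusted p = 0.642). Replicate 3 was low in both and the other arrays were above 0, and without it Ins1 was at 2.17 (limma adjusted p = 0.0476) and was called.

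Among the regulators that let nodes and thymus express tissue antigens, Deaf1 and Aire were not called. Of the list's 23 genes 0 were called by limma (2 higher and 4 lower at an unadjusted p under 0.05). Deaf1, a transcription factor, was at -2.0, -0.31, 1.48, -0.27 and 1.11, so arrays fell on both sides of 0 (0.00 ± 1.38 SD, n = 5; limma adjusted p = 1). Other probes of Deaf1 disagreed with this one, though they too stayed under the size limit. One, well above background on all 5 arrays in both channels, was above 0 on every array, at 0.34 (limma adjusted p = 0.0414). A further probe gave 0.70 (limma adjusted p = 0.0347) but was well above background in NOD on 2 arrays and in the control on 0. Aire, the autoimmune regulator, was at 0.59, 0.00, 0.62, 0.21 and 0.31 (0.35 ± 0.26 SD, n = 5; limma adjusted p = 0.123), with no array below 0.

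Several of the highest and lowest ratios belonged to genes of no list and were tight across arrays. Mta2, a subunit of a chromatin-remodelling and deacetylase complex, was at 2.17, 2.17, 1.96, 2.12 and 2.01 (2.09 ± 0.10 SD, n = 5), a 4.25-fold higher signal with limma adjusted p = 1.93e-12, but another of its 3 probes gave -0.11. Kdm6b, a histone H3 demethylase, was at 2.29, 1.99, 1.70, 1.79 and 2.08 (1.97 ± 0.24 SD, n = 5; limma adjusted p = 1.22e-11). No array stood apart in either gene. Fam117a averaged 2.19 ± 0.52 (SD, n = 5) and Cdc25b, a phosphatase that starts mitosis, 2.01 ± 0.56 (SD, n = 5), both highest on replicate 2, at 3.02 and 2.94. Other probes of Cdc25b gave 0.83 and -0.54.

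Other genes among the highest had replicates 1 and 5 on top. Nfya, a subunit of the CCAAT-binding factor, was at 3.06, 1.93, 1.29, 0.94 and 3.71 (2.19 ± 1.17 SD, n = 5; limma adjusted p = 8.73e-05), with its other probe at -0.83. Slc25a35, a mitochondrial carrier, was at 2.76, 1.70, 1.21, 1.0 and 3.36 (2.01 ± 1.02 SD, n = 5; limma adjusted p = 0.00014), with its other probe at 0.12. Trim68, a ubiquitin ligase, had its highest value of 3.57 on replicate 5 and its lowest of 0.49 on replicate 3 (2.12 ± 1.22 SD, n = 5; limma adjusted p = 0.000316).

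On the lower side, Timp2, an inhibitor of matrix metalloproteinases, was at -1.87, -2.37, -2.70, -2.60 and -2.26 (-2.36 ± 0.33 SD, n = 5), a 5.14-fold lower signal with limma adjusted p = 1.58e-10. Sorl1, a sorting receptor, was at -2.17, -2.06, -2.35, -1.93 and -2.22 (-2.15 ± 0.16 SD, n = 5), a 4.43-fold lower signal with limma adjusted p = 2.34e-12. All arrays lay close together in both. Tra2b, a splicing factor, ran from -1.90 to -1.73 (-1.80 ± 0.07 SD, n = 5; limma adjusted p = 4.89e-10), with its other probe at 0.15.

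Ipo7, a nuclear import receptor, averaged -2.35, Gucy1a1, a subunit of the nitric oxide receptor, -2.08, and Daglb, a lipase of endocannabinoid synthesis, -1.79. Other probes of these 3 genes gave -0.02, 0.36 and 0.53. Ttc34 (-1.87) had another probe at 1.03. Pcdh1, a protocadherin, averaged -1.82 and Rgs3, a regulator of G protein signalling, -1.80, with another probe of Rgs3 at 0.80. The neuropeptide gene Gal was the least even, at -3.34, -2.59, -0.93, -1.90 and -0.64 (-1.88 ± 1.13 SD, n = 5; limma adjusted p = 0.00238), lowest on replicate 1. With the scanner software's version as a block Gal was at -0.72 and not called (limma adjusted p = 0.395). Over all 431 called genes with several probes, 37 had every probe called in 1 direction and 5 had a probe called in the opposite direction.

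Where 1 channel was above background on none of the 5 arrays by any probe of a gene, only a bound can be given, the bright signal against the lowest signal accepted as above background. Fgf21, a fasting hormone made in liver, pancreas and fat, was at -3.91, -3.02, -3.47, -2.14 and -3.64, far below 0 on every array. It was at least 7.02-fold lower in NOD (limma adjusted p = 5.65e-06). Its other probe gave -1.28 and was called lower too.

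**Figure D4:**
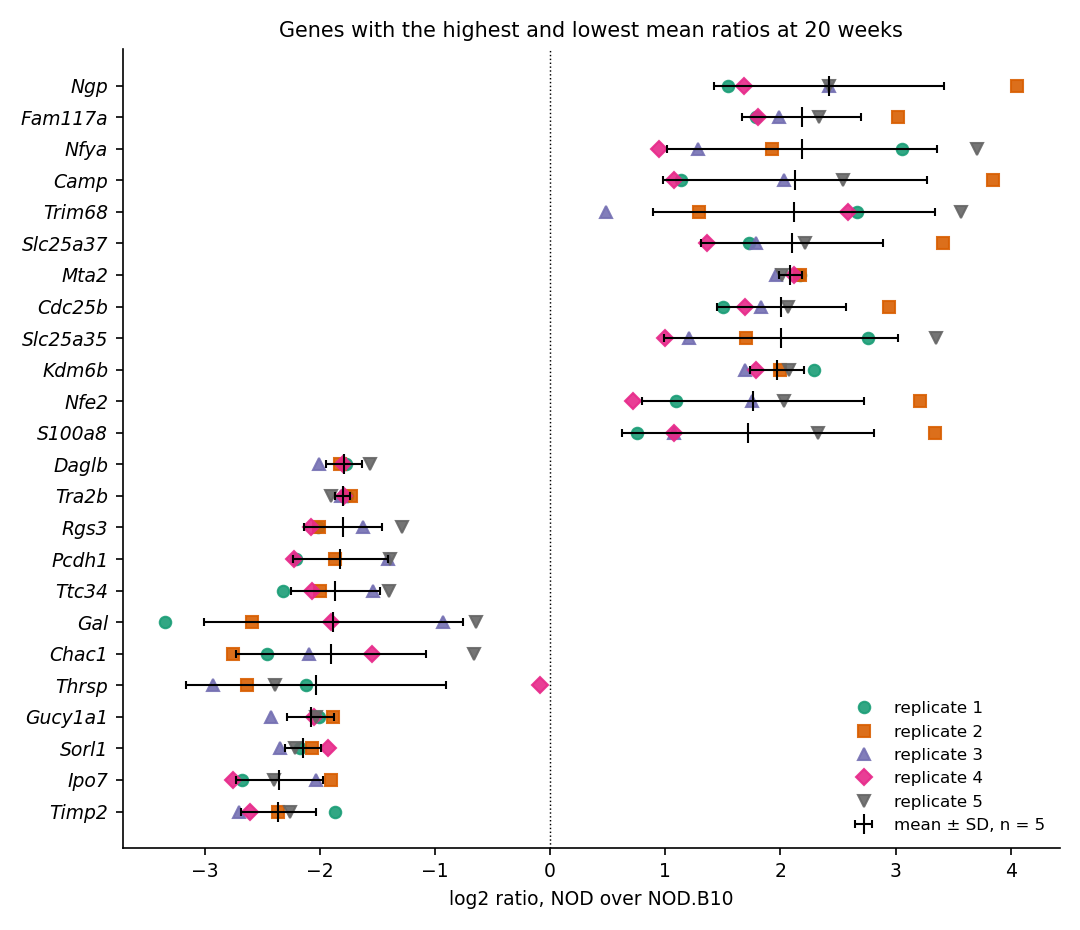
Log2 ratio of NOD over NOD.B10 (x axis) of the 12 highest and 12 lowest genes measured above background in NOD and control on every array; symbols mark the replicates, and the line gives the mean ± SD. Mta2, Sorl1 and Tra2b are tight (SD 0.10, 0.16 and 0.07), while Ngp and Camp spread upward on replicate 2.

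Set against the 12-week and 16-week NOD nodes, the 20-week ratios were higher in blood cell and pancreas genes, and in part in other lists. The ranges of the arrays still overlapped in part. The neutrophil mean ratio ran from -1.48 to 0.20 at 16 weeks, against 0.15 to 1.94 at 20 weeks. The acinar ranges at 12 and 16 weeks reached above the lowest 20-week array. Among the younger ages, the erythroid mean at 8 weeks (-0.55 to 1.03) overlapped that at 20 weeks. So did the neutrophil means at 4 weeks (-0.20 to 1.65) and 8 weeks (-0.05 to 0.38). The acinar means at 10 days (-3.74 to 0.31), 4 weeks (-5.89 to 2.82) and 8 weeks (-5.72 to 0.47) also overlapped those at 20 weeks. The adipocyte list was low at other ages too. Its means at 10 days (-1.12 to -0.19), 12 weeks (-1.65 to 0.55) and 16 weeks (-1.57 to 0.51) overlapped those at 20 weeks (-1.57 to 0.72). Against 16 weeks (n = 6), 1021 of 28438 genes were called (3.59%), 607 with a higher ratio at 20 weeks (2.13%) and 414 with a lower one (1.46%). Against 12 weeks (n = 7), 2116 were called (7.44%), 1160 higher (4.08%) and 956 lower (3.36%). Of 48 respiratory chain genes, 20 were called higher against 12 weeks and 0 against 16 weeks, with 0 lower. Of 18 glucocorticoid-responsive genes, 8 were called higher and 0 lower against 16 weeks, and 4 and 1 against 12 weeks. For 30 heat shock and unfolded-protein genes these counts were 7 and 0, and 6 and 1. For 60 ribosomal protein genes they were 0 and 0, and 8 and 1. Both comparisons use the same 20-week arrays, so they are not independent of each other. Replicate 5 at 20 weeks was on the second scanner, as were 3 arrays of 16 weeks and 3 of 12 weeks. Within the first scanner, 4 arrays of 20 weeks stood against 2 of 16 weeks and 1 of 12 weeks, and limma called 0 genes in either comparison, with 4177 and 4716 genes at an unadjusted p under 0.05. Within the second scanner it called 21 and 4.

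Of the 31 erythroid genes, 30 were called higher at 20 than at 16 weeks, against 2.13% of all genes, with a median difference of 2.45. Against 12 weeks 30 were called higher, against 4.08% of all genes, and the median difference was 2.58. The list's mean ratio ran from 0.04 to 2.28 at 20 weeks, from -2.23 to -0.59 at 16 weeks and from -2.54 to -1.25 at 12 weeks, so that the 20-week arrays overlapped neither. The list was therefore below the control at both younger ages and at or above it at 20 weeks. In the separate channels, the median change from 16 weeks was 1.90 in NOD and -0.64 in the control, and from 12 weeks 2.21 and -0.49. Part of the difference in ratio thus sat in the control channel.

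Alas2 had a ratio of -1.70 ± 0.77 at 16 weeks (SD, n = 6) and -1.94 ± 1.29 at 12 weeks (SD, n = 7). Its 20-week ratio was 3.31 above the former and 3.54 above the latter, with limma adjusted p of 0.000146 and 3.82e-06. Eraf, the alpha-globin chaperone, was at -0.32, 2.67, 0.87, 0.47 and 1.93 at 20 weeks and at -4.16 ± 1.36 at 12 weeks (SD, n = 7), a difference of 5.28 (limma adjusted p = 7.92e-07) made of 4.85 in the NOD and -0.43 in the control channel. Replicate 1 was its lowest 20-week array and still above the mean of 12 weeks.

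Of the 29 neutrophil genes, 13 were called higher at 20 than at 16 weeks and 16 than at 12 weeks, with 0 called lower in either. The median differences were 1.02 and 1.30. Of all genes, 2.13% were called higher against 16 weeks and 4.08% against 12 weeks. Camp was at -2.03 ± 1.48 at 16 weeks (SD, n = 6) and -3.04 ± 0.78 at 12 weeks (SD, n = 7). The differences were 4.16 (limma adjusted p = 9.49e-05) and 5.17 (limma adjusted p = 2.1e-07), and in the NOD channel alone 2.70 and 4.91. Of 17 platelet and megakaryocyte genes, 7 were called higher against 16 weeks and 9 against 12 weeks. Of 52 cell cycle genes, 10 were called higher and 1 lower against 16 weeks, and 13 higher and 1 lower against 12 weeks. The shares of all genes called lower were 1.46% and 3.36%.

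**Figure D5:**
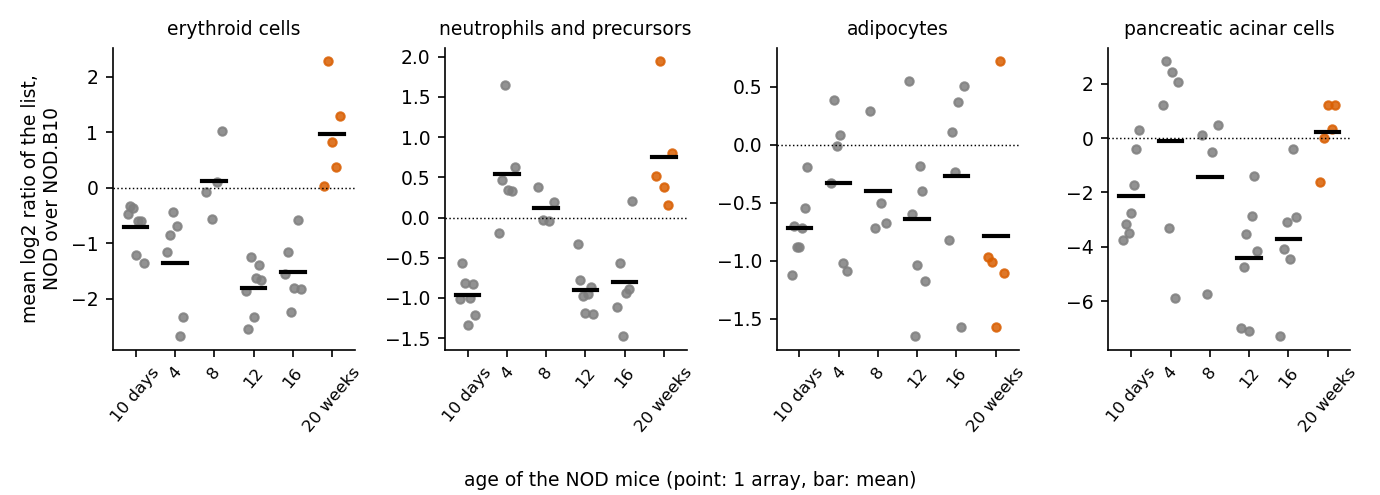
Mean log2 ratio of NOD over NOD.B10 (y axis) of the erythroid, neutrophil, adipocyte and acinar lists on each of the 35 arrays by age (x axis); points are arrays, bars group means and orange marks 20 weeks. The erythroid points at 20 weeks, 0.04 to 2.28, lie above all those of 16 weeks (-2.23 to -0.59) and 12 weeks (-2.54 to -1.25).

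The highest differences among the genes named were those of pancreatic genes. The mean acinar ratio was -3.70 at 16 weeks, from -7.29 to -0.40, and -4.39 at 12 weeks, from -7.10 to -1.41, against -1.61 to 1.23 at 20 weeks. Of 36 acinar genes, 6 were called higher against 16 weeks and 33 against 12 weeks, and the median change in the NOD channel was 2.96 and 4.29, with -0.70 and -0.64 in the control. Reg2, a secreted protein of regenerating acinar tissue, was at -0.64, 0.74, 0.72, 0.23 and 0.77 at 20 weeks and at -8.90 ± 2.67 at 16 weeks (SD, n = 6), a difference of 9.26 (limma adjusted p = 0.00115). The control channel itself changed by -2.49 for Reg2. The relatives Reg3a and Reg3b differed by 8.07 and 7.49 from 16 weeks.

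Islet hormones showed the same order. Gcg, glucagon, was at -0.14, 0.58, 0.18, -0.82 and -0.20 at 20 weeks, close to 0, and at -5.75 ± 0.70 at 16 weeks (SD, n = 6). The difference of 5.67 (limma adjusted p = 0.000146) was 2.56 in the NOD and -3.11 in the control channel, so more of it lay in the control. The other probe of Gcg gave -1.34 at 20 weeks and was called lower, though it was well above background in NOD on 2 arrays. Ins1 differed by 6.07 from 16 weeks (limma adjusted p = 0.000264), of which 3.39 lay in the NOD and -2.68 in the control channel. Whether these differences follow the amount of pancreas in the samples or the control pool used was not tested.

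Genes with a lower ratio at 20 weeks were fewer in the lists. Of 29 stroma genes 8 were called lower against 16 weeks, with a median change of -0.52 in NOD and 0.24 in the control. Of 28 endothelial genes 5 were called lower against 16 weeks. Of 39 type I interferon genes, 2 were called higher and 5 lower against 16 weeks, and 3 higher and 13 lower against 12 weeks. Against 16 weeks 2.13% of all genes were called higher and 1.46% lower, and against 12 weeks 4.08% and 3.36%. Pcdh17, a protocadherin, was at -1.72, -1.91, -1.76, -0.91 and -1.44 at 20 weeks and at 0.22 ± 0.17 at 16 weeks (SD, n = 6), a difference of -1.77 (limma adjusted p = 8.4e-05). This probe was well above background in NOD on 1 of the 20-week arrays, so the size is not exact, and the other probe gave 0.57. The transcription factor gene Ebf3 differed by -1.65, with a change of -1.59 in the NOD and 0.07 in the control channel. For Me1, malic enzyme, the difference of -1.93 was -0.39 in the NOD and 1.54 in the control channel, and for Mup4, a urinary protein, that of -2.15 from 12 weeks was -0.39 and 1.76. Most of these 2 differences thus lay in the control channel. The B cell factor Bcl11a differed by -1.64 from 16 weeks, of which 1.13 was a rise in the control. With normexp background correction the differences of Pcdh17, Ebf3, Me1 and Mup4 were not called.

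The tight genes of no list differed in when they appeared. Sorl1 was at 0.19 ± 0.25 at 12 weeks (SD, n = 7), -1.58 ± 0.42 at 16 weeks (SD, n = 6) and -2.15 at 20 weeks. It was lower at 20 than at 12 weeks by -2.33 (limma adjusted p = 7.97e-10) but not called against 16 weeks (-0.56; limma adjusted p = 0.071). Tra2b ran from 0.89 ± 0.73 at 12 weeks (SD, n = 7) to -1.07 ± 0.21 at 16 weeks (SD, n = 6), and its difference from 12 weeks of -2.70 was -2.77 in the NOD channel. Mta2 was at 0.24 ± 0.59 at 12 weeks (SD, n = 7) and 2.27 ± 0.14 at 16 weeks (SD, n = 6), and its 20-week ratio of 2.09 differed by 1.85 from 12 weeks (limma adjusted p = 2.45e-08) and by -0.18 from 16 weeks (SE 0.19; limma adjusted p = 0.627). Apbb1ip, an adaptor of integrin activation, and Zfp945, a zinc finger gene, were lower than at 12 weeks by -2.12 and -2.58. Another probe of Apbb1ip, well above background on all 5 arrays in both channels, gave 0.09 at 20 weeks. The Zfp945 probe was well above background in NOD on 1 of the 20-week arrays, so that size is not exact, and with normexp it was not called. Of the 12-week arrays 6 were on the scan day of the 20-week arrays.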

How the data were processed

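Nodes were measured on Agilent 41K whole mouse genome arrays; RNA was extracted with Qiagen RNeasy and amplified linearly, per the labels' protocols. The deposited intensity values of each spot were background-subtracted and dye-normalised by the authors in Agilent Feature Extraction 8.5, per the submitters' processing notes (8.5.1.1 at 20 weeks, per the file headers). Over spots without a surrogate (substituted) signal, the deposited log10 ratios equal the negative of the Feature Extraction LogRatio within 5e-10. Spots with a surrogate were left out of this check. The deposited ratios are NOD over NOD.B10, per the labels.

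From these, log2(NOD/NOD.B10) of the processed signals was computed, without control and outlier-flagged spots, for 41174 probes. The 40833 probes with a signal well above background in NOD or control on 4 or more arrays were kept, and the probe of highest mean signal stood for its gene. Of the probes, 21445 were named by RefSeq accession, 5431 by symbol and 4636 by synonym. Age means over 35 arrays were fitted in limma 3.58.1 (R 4.3.3; 29 residual df) with Benjamini-Hochberg adjustment, and the test was checked on simulated data. Channel levels are log2 processed signals, quantile-normalised over both channels of the arrays. The number of arrays limits the precision. Bounds ("at least") compare the mean of the bright channel with the dim channel's mean of, per array, the lowest signal well above background or the probe's own signal if higher, and can carry dye bias.

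The members and lists were chosen with earlier results of these data known. Genes were named by rule: the 12 highest and 12 lowest called genes measured in both channels on all 5 arrays, 6 and 6 bounds, up to 4 called members of each list, 14 genes of interest in this disease, and the 6 highest and 6 lowest age differences whose groups do not overlap. Other background corrections, filters, size limits, centring, blocks for scanner, scan day, software version and replicate number, and leaving out each array were tried. Some genes these rules pick are not reported here.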

Additional observations from a re-analysis of the deposited data

Results flagged for a closer look

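In 12 of 126 values checked, 1 of the 5 arrays at 20 weeks stood far from the others by Dixon's gap test, which chance alone passes in about 1 in 20 groups. Replicate 4 stood apart in the adipocyte list, with a mean ratio of 0.72 that leaves out low members dropped on that array. The list's members Thrsp (-0.092) and Cidea (0.067) were apart on replicate 4 as well. Replicate 4 also stood apart in Oasl2 (-3.12) and Kdr (-2.07). Replicate 1 stood apart in the lists of liver-secreted genes (0.77), class II genes (0.18), tissue-antigen regulators (-0.28) and complement genes (0.23). Replicate 3 stood apart in Gimap3 (-2.21) and Ins2 (-3.54), and replicate 5 in Wif1 (-3.91), a secreted Wnt inhibitor whose mean of -1.62 became -1.05 without it. The Wif1 probe was well above background in NOD on 0 arrays and in the control on 1, so these ratios are not exact.

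The strain ratio differed between 20 weeks and a younger age in the genes named for that, by limma's contrast of the ages. Against 16 weeks the differences were 9.26 for Reg2, 8.07 for Reg3a, 7.49 for Reg3b, 6.07 for Ins1, 5.67 for Gcg and 4.16 for Camp. The lowest were -1.93 for Me1, -1.77 for C130006E23, -1.77 for Pcdh17, -1.72 for Zc3h12d, -1.65 for Ebf3 and -1.64 for Bcl11a. Against 12 weeks they were 8.08 for Reg2, 6.04 for Reg3a, 5.47 for Gcg, 5.28 for Eraf, 5.17 for Camp and 4.76 for Clps. The Clps spot at 20 weeks was saturated in the control on all 5 arrays and in NOD on 3, so its difference is not exact. The lowest were -2.70 for Tra2b, -2.69 for C130006E23, -2.58 for Zfp945, -2.33 for Sorl1, -2.15 for Mup4 and -2.12 for Apbb1ip.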

How the results depend on the processing

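No named gene that was called changed its sign under any alternative run. Within the second scanner, 1223 of the 1237 genes called for the strain ratio had the same sign, 1014 of 1021 against 16 weeks and 2092 of 2116 against 12 weeks, and within the first 1237, 1020 and 2099. These arrays also chose the genes. Medians near 0 changed sign, such as that of the ribosomal list (-0.02, and 0.31 with normexp) and of the tissue-antigen regulators (-0.15, and 0.03 with the software version as a block). With normexp background correction and loess, the strain ratio gave 66 higher and 88 lower genes (154 in all), the contrast with 16 weeks 244 and 34 (278) and that with 12 weeks 442 and 203 (645). Requiring both channels above background left 197 and 297 (494) for the strain ratio, 637 in all and 141 lower against 16 weeks, and 1328 and 449 against 12 weeks. Without a size limit the counts were 2663 and 4837 (7500), 1052 and 1414 (2466), and 2834 and 3182 (6016), and with a limit of 1.5 they were 61 and 148 (209), 315 and 62 (377), and 496 and 178 (674). Centring gave 462 higher genes. With the compared ages alone, 375 were higher and 258 lower against 16 weeks (633), and with the scanner as a block 695 were lower. Within the second scanner the strain ratio gave 46 and 365 (411), the contrast with 16 weeks 1 and 20 (21) and that with 12 weeks 0 and 4 (4), with 2096 higher at an unadjusted p under 0.05; within the first scanner both contrasts gave 0 (1621 higher and 2556 lower, and 2208 and 2508, at an unadjusted p under 0.05).

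The 14 erythroid genes became 8 with normexp, 3 with the scanner block, 5 within the first scanner and 0 within the second (14 at an unadjusted p under 0.05). The 11 neutrophil genes became 6 with normexp, 7 with the software version as a block, 4 with the scanner block, and 2 and 1 within the first and second scanner. The 11 adipocyte genes became 7 with normexp, 6 with both channels, 7 with the software version, 6 within the first scanner and 0 within the second (5 at an unadjusted p under 0.05). Leaving out 1 array gave 7 to 18 erythroid, 6 to 11 neutrophil and 8 to 13 adipocyte genes, 261 to 376 higher and 908 to 1108 lower strain ratios, and 398 (without replicate 5) to 800 higher against 16 weeks. Camp, S100a8, Alas2 and Ltf lost their calls with the scanner block. The cause of these changes was not tested.

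With the replicate number as a block, 313 genes were higher and 914 lower in the strain ratio, 549 and 411 against 16 weeks and 1155 and 938 against 12 weeks; the numbers' correlations ran from -0.05 to 0.14, so they do not pair the arrays.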

Other observations

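Single genes of several other lists differed at 20 weeks. The counts in this section are set against 1.04% of all genes called higher and 3.31% called lower. Among 28 endothelial genes, Fut7, which makes the ligand that lets lymphocytes enter nodes through high endothelial venules, was at -0.32, -1.52, -1.12, -0.74 and -1.49 on replicates 1 to 5 (-1.04 ± 0.51 SD, n = 5; limma adjusted p = 3.37e-05), below 0 on every array. It was at -0.91 without replicate 2 and -0.92 without replicate 5, which ended its call. Sox17, a factor of arterial vessels, averaged -1.13, was well above background in NOD on 1 array, and was at -0.95 without replicate 4. The other probes of Sox17 gave -0.06, -0.35 and 0.24. Tnnc2, a troponin of fast skeletal muscle, was at -1.23 ± 0.27 (SD, n = 5; limma adjusted p = 1.04e-06), and 2 of 21 muscle genes fell.

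Of 23 complement genes, C1qa rose and C7, a part of the membrane attack complex, fell, at -2.18, -2.14, -1.82, -0.98 and -0.47 (-1.52 ± 0.76 SD, n = 5; limma adjusted p = 0.000127), closest to 0 on replicate 5. In the cell cycle list, Ccne2, a cyclin of the start of DNA synthesis, averaged 1.35 and was highest on replicate 2 at 2.15. Cdc20, which activates the end of mitosis, averaged -1.23 and was closest to 0 on replicate 2 at -0.31. Car2, a carbonic anhydrase of pancreatic ducts and also of red cells, was at -0.27, 2.70, 1.01, 0.65 and 1.68 (1.15 ± 1.11 SD, n = 5; limma adjusted p = 0.028). Its order over the arrays, highest on replicate 2 and lowest on replicate 1, was that of the erythroid list, and it was at 0.77 without replicate 2 (limma adjusted p = 0.204). With normexp background correction, Fut7, Sox17, Tnnc2, C7 and Ccne2 kept their sign and were not called.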
